A study of Homo sapiens with 4 samples.

Results

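The genes described here are 36 components and targets of the hypoxia-inducible factor (HIF) pathway. They were chosen by symbol with earlier results of these data known, and 35 of them were measured among 19775 genes in all. CA9, a carbonic anhydrase, was not analysed here. Each gene was read from a probe set annotated to it alone, the one with the highest mean over the 4 arrays where there were several, and no filter on low signal was applied. The members are the HIF subunits, the enzymes that sense oxygen and mark HIF for destruction, and genes known to be induced when oxygen is scarce.

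HIF is a transcription factor built from an oxygen-regulated alpha subunit (HIF1A or EPAS1) and the constitutive partner ARNT. In the presence of oxygen the prolyl hydroxylases EGLN1, EGLN2 and EGLN3 modify the alpha subunit, the VHL ubiquitin ligase then directs it to the proteasome, and HIF1AN hydroxylates an asparagine that otherwise binds coactivators. This control acts on the protein, so transcript levels of the subunits do not report the amount of HIF. In hypoxia HIF binds DNA elements with a short core motif near genes for glycolysis, angiogenesis, mitophagy and collagen modification, and pancreatic ductal adenocarcinoma is known as a poorly oxygenated tumour.

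The cells were CAPAN2, an established human pancreatic ductal adenocarcinoma line grown in medium with 10% serum and exposed overnight to lentivirus together with hexadimethrine bromide at 8 µg/ml. The control group has 2 arrays of cells that received control lentivirus, and the other group has 2 arrays of cells that received shRNAs directed at LLGL1, a cell polarity protein, by the same route. The titles name these groups NC and siLLGL1, and the other labels name shRNAs. The oxygen level of the cultures, the time between transduction and harvest, any selection of transduced cells and the number of shRNAs are not stated by these sources. The labels call the arrays biological replicates without naming separate cultures, so the p-values reflect only how far these arrays spread, which may be technical.

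LLGL1 itself read 6.83 and 6.86 (log2 signal) on the control arrays and 6.73 and 6.71 on the arrays labelled LLGL1 shRNA. This difference of -0.12 (95% interval -0.27 to 0.02) was not called by limma (adjusted p = 0.22), and averaging the LLGL1 probe sets gave 0.01. The targeted transcript therefore did not bear out the labels, and every direction below is between arrays as labelled. Median signals of the arrays were 2.95 to 2.98 on the log2 scale, and replicate arrays correlated at r = 0.997 across probe sets. The 9 measured markers of ductal epithelium had a mean log2 signal of 9.17 to 9.20 per array, with KRT19 and CDH1 lower and KRT7 higher by the test. Mean signals per array were 1.77 to 1.87 for 4 endocrine, 1.90 to 2.07 for 3 acinar, 2.56 to 2.69 for 3 immune, 2.73 to 2.89 for 6 fibroblast and 2.88 to 3.02 for 4 endothelial markers, with none called. Probe sets for added poly-A spike RNAs (24) and for 18S ribosomal RNA (3) had mean log2 differences of -1.14 and -1.97 between these groups. Their part in the results below was not tested.

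Of the 35 measured members, 13 fell and 1 rose on the arrays labelled LLGL1 shRNA at a limma adjusted p below 0.05, and 21 were not called. The 14 called genes are all listed as hypoxia-induced. No HIF subunit passed the test, nor did EGLN1, EGLN2, EGLN3, VHL or HIF1AN. The test called 3.07% of all genes lower and 3.21% higher. Because the members were chosen with earlier results known, their counts and median are a description and not a test of the list. The 13 that fell were ANKRD37, NDRG1, BNIP3L, VEGFA, INSIG2, DDIT4, BHLHE40, ZNF395, KDM3A, WSB1, PLOD2, MXI1 and ERO1A. BNIP3 rose. In RNA from bulk cells, fewer cells expressing a gene and less RNA per cell cannot be told apart.

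The median log2 difference over the 35 members was -0.36, against 0.01 over all genes tested, and -0.17 when all probe sets of each gene were averaged. It was negative for 27 members and positive for 8. The 2 arrays of each group did not overlap for 30 members, being lower on the arrays labelled LLGL1 shRNA for 24 and higher for 6. Over all genes, the groups were separated in this way downward for 24.7% and upward for 27.7%. The members that fell all had a mean log2 signal of at least 5. Of the 28 members at that level 13 fell and none rose, while 5.92% of the 8379 genes at that level fell and 5.25% rose. Of the other 7 members BNIP3 alone was called.

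These calls rest on a small margin, since no member passed at an adjusted p below 0.01. Leaving out any 1 array left a group with 1 array, too few for calls to be judged. The 13 differences stayed negative in each such fit. With every probe set tested on its own, the brightest ones of ANKRD37, NDRG1, BNIP3L and BNIP3 still passed. The brightest ones of the other 10 called genes did not, while a dimmer WSB1 probe set did (log2 difference -0.87, limma adjusted p = 0.0478).

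**Figure D1:**
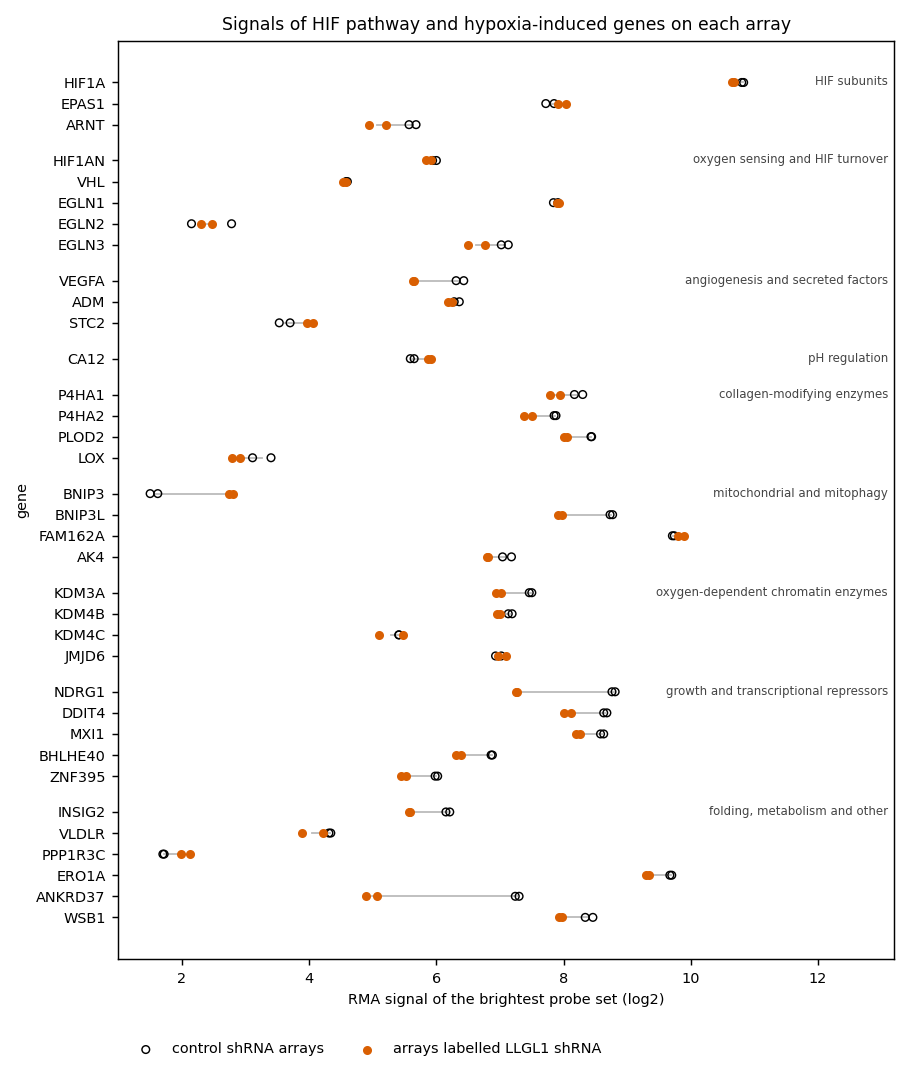
Log2 RMA signal (x axis) of each measured member (rows, grouped by role) on each of the 2 control arrays (open circles) and the 2 arrays labelled LLGL1 shRNA (filled circles), with a grey line joining the group means. ANKRD37 and NDRG1 show the widest downward gaps, and BNIP3 the widest upward gap, from a signal of 1.5 and 1.62.

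**Figure D2:**
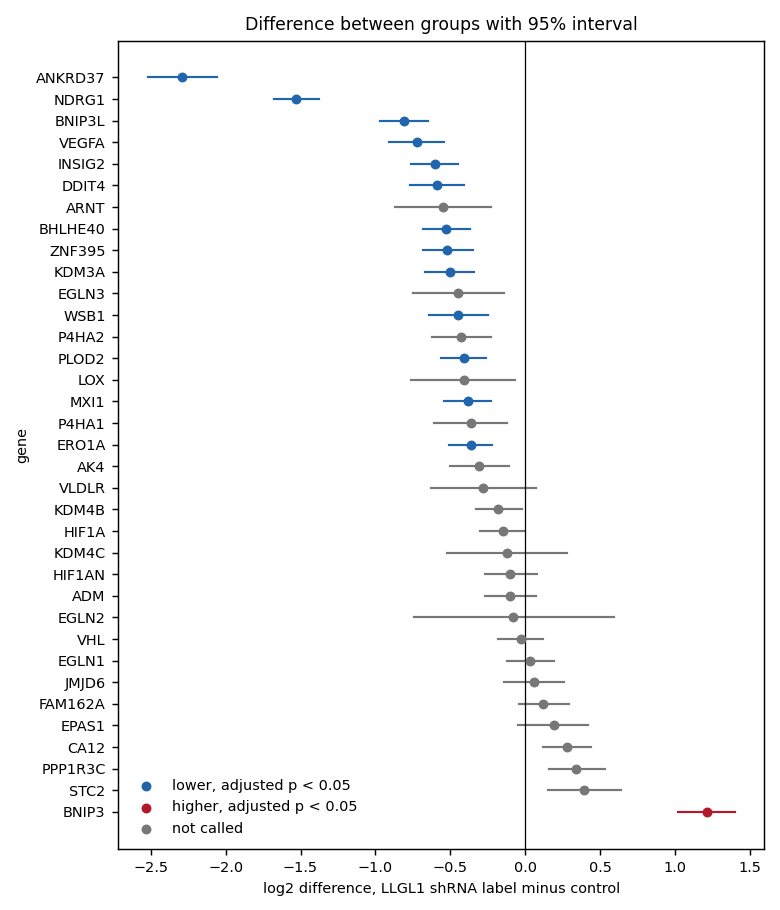
Log2 difference of the arrays labelled LLGL1 shRNA from control (x axis) for each member (rows, sorted), with the 95% interval from limma as a bar and the colour giving the call. The 13 genes called lower lie between -2.29 and -0.36, and BNIP3 lies at 1.21.

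ANKRD37, an ankyrin-repeat protein known as a HIF1 target, read 7.24 and 7.30 (log2 signal) on the control arrays and 5.07 and 4.89 on the arrays labelled LLGL1 shRNA. It fell 4.90-fold (log2 difference -2.29, SE 0.0823, adjusted p = 0.0114), the lowest difference among the 19775 genes. Its dimmer probe set, below 3 on every array, differed by -0.14, so that the mean of both gave -1.22 (adjusted p = 0.0294). NDRG1, a stress-induced gene that restrains growth and metastasis in several tumour types, read 8.81 and 8.76 on the control arrays and 7.25 and 7.26 on the others. The replicates lay close together in each group, and the gene fell 2.89-fold (log2 difference -1.53, SE 0.053, adjusted p = 0.0114). The authors' deposited table, which holds 294 probe sets, lists ANKRD37 at a ratio of 0.204, NDRG1 at 0.346 and BNIP3 at 2.31, and no other member.

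Promoters are shown for the 4 genes that fell most among those with a RefSeq promoter entry, and for BNIP3, the gene that rose, so that the short HIF core motif can be seen in them. Each line gives the 250 bases before the annotated start on GRCh38.p14, 5′ to 3′ on the strand of the gene, and capitals mark ACGTG or GCGTG on either strand. The windows are chr4:185396591-185396840 (plus strand), chr2:118088221-118088470 (plus, the more upstream of its 2 windows), chr10:72273674-72273923 (plus), chr3:4979187-4979436 (plus) and chr10:131981924-131982173 (minus).
ANKRD37: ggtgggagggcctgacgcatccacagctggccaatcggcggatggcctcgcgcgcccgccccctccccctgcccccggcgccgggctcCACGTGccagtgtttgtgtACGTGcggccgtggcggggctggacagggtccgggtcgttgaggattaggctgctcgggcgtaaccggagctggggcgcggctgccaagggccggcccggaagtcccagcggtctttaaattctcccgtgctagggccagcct
INSIG2: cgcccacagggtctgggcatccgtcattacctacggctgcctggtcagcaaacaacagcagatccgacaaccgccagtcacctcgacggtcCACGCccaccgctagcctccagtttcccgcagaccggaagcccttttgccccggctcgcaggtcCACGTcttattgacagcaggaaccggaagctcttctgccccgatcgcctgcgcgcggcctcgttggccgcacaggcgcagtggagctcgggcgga
DDIT4: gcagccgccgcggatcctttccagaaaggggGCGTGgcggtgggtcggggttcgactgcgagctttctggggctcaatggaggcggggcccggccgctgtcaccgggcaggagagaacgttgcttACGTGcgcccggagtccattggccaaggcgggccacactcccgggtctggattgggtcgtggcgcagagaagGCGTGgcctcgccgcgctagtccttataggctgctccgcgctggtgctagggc
BHLHE40: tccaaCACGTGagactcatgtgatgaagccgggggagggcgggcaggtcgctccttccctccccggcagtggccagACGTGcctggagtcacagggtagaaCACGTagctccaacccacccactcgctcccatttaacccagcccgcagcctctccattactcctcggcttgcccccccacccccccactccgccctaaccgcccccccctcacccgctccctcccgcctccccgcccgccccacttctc
BNIP3: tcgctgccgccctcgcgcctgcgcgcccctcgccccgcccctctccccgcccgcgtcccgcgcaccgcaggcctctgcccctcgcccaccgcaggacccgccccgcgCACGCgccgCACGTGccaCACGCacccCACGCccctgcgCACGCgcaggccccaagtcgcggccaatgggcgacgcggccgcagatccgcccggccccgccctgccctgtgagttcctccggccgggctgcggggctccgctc

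The ANKRD37 window holds 3 matches, INSIG2 2, DDIT4 3, BHLHE40 4 and BNIP3 6, counting both strands. A palindromic CACGTG, also the E-box read by other factors, counts as a match on each strand and is present once in ANKRD37, BHLHE40 and BNIP3. An entry was found for 30 of the 36 members, and 29 of these were measured. Some genes have several windows. The members that fell have 13 windows from 9 genes, and 12 of these windows hold ACGTG or GCGTG. NDRG1, BNIP3L, VEGFA and ZNF395, which also fell, had no promoter entry and were not searched for motifs. The members not called have 26 windows from 19 genes, and 19 of these windows hold either motif. In all 35116 promoters the share with either motif was 43.2%, with ACGTG alone searched 18.5%, and with CACGTG 6.34%. The motifs contain CG, and the mean GC content was 68.2% over the windows of measured members and 57.2% over all promoters. BNIP3, which rose, had the most matches of the 5 printed windows, and EGLN3 and P4HA2, hypoxia-induced genes with no call, had none. A match is a description of letters and not evidence of binding.

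The HIF subunits did not pass the test, and they did not share a direction. HIF1A, the alpha subunit found in nearly all cells, read 10.80 and 10.83 (log2) on the control arrays and 10.68 and 10.64 on the arrays labelled LLGL1 shRNA. The arrays did not overlap, but the difference was small at -0.15 (95% interval -0.30 to -0.01, adjusted p = 0.167). EPAS1, the alpha subunit also called HIF-2 alpha, read 7.72 and 7.85 against 8.03 and 7.91, a difference of 0.19 (-0.05 to 0.42, adjusted p = 0.252). ARNT read 5.68 and 5.57 against 4.94 and 5.20, a difference of -0.55 with a wide interval of -0.87 to -0.23 (adjusted p = 0.0729). That ARNT value belongs to 1 of 7 probe sets. The 2 next in signal differed by 0.19 and 0.06, and the mean of all 7 by -0.10 (adjusted p = 0.316). With trend and robust moderation HIF1A (adjusted p = 0.0215) and ARNT (adjusted p = 0.00709) passed at the same differences, and 10% of all genes were then called lower. Both also passed when dim genes were left out (adjusted p = 0.0494 and 0.0019), where 24.8% were called lower, and ARNT passed after median centring (adjusted p = 0.0268).

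Of the genes grouped here as oxygen sensors and turnover machinery, EGLN1, EGLN2, EGLN3, VHL and HIF1AN, none was called. EGLN1, the main prolyl hydroxylase acting on HIF1A, read 7.84 and 7.91 on the control arrays and 7.92 and 7.90 on the others, a difference of 0.03 (95% interval -0.12 to 0.19), or -0.06 after averaging its probe sets. VHL read 4.58 and 4.60 against 4.58 and 4.53, a difference of -0.03 (-0.18 to 0.12). HIF1AN, the asparagine hydroxylase, read 5.94 and 6.0 against 5.92 and 5.83, a difference of -0.10 (-0.27 to 0.08). The groups lay within or next to each other for these genes, and their intervals exclude differences as large as that of VEGFA, at -0.72. EGLN2, a nuclear prolyl hydroxylase, was dim in its own probe set, with 2.15 and 2.78 against 2.48 and 2.30, and its interval of -0.74 to 0.59 leaves its direction unknown. A brighter probe set shared by EGLN2 and the readthrough transcript RAB4B-EGLN2 read 5.72 and 5.70 against 5.87 and 5.81.

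EGLN3 is itself known to be induced by HIF. It read 7.02 and 7.13 on the control arrays and 6.76 and 6.5 on the arrays labelled LLGL1 shRNA. The groups did not overlap, the log2 difference was -0.45 (95% interval -0.75 to -0.14, adjusted p = 0.0972), and its other probe set differed by -0.33. With the mean of both probe sets EGLN3 passed (log2 difference -0.39, adjusted p = 0.0359), as it did without dim genes (adjusted p = 0.00433) and with trend and robust moderation (adjusted p = 0.00932).

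The secreted factors did not move together. VEGFA, the main angiogenic growth factor under HIF control, read 6.31 and 6.43 (log2) on the control arrays and 5.65 and 5.64 on the others, and fell 1.65-fold (log2 difference -0.72, SE 0.0647, adjusted p = 0.0318). The 3 dimmer VEGFA probe sets showed smaller differences of -0.20, -0.14 and -0.10, and averaging all 4 ended the call (log2 difference -0.29, adjusted p = 0.0674). ADM, the vasodilator adrenomedullin, read 6.28 and 6.36 against 6.25 and 6.19, a difference of -0.10 (95% interval -0.27 to 0.07). STC2, a secreted glycoprotein, lay the other way, with 3.53 and 3.70 against 4.06 and 3.96, a difference of 0.39 (adjusted p = 0.0796), and passed after averaging its probe sets (0.55, adjusted p = 0.0294). CA12, a membrane carbonic anhydrase that helps control pH, read 5.59 and 5.65 against 5.92 and 5.87, a difference of 0.28 (adjusted p = 0.0725). It passed after cyclic loess (limma adjusted p = 0.0463), with trend and robust moderation (0.0233) and without dim genes (0.00527). Averaging its 7 probe sets gave a smaller difference of 0.15, not called (adjusted p = 0.233).

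Among the collagen-modifying enzymes PLOD2 alone passed. PLOD2, a lysyl hydroxylase that shapes collagen crosslinks, read 8.44 and 8.43 on the control arrays and 8.05 and 8.00 on the others, and fell 1.33-fold (log2 difference -0.41, adjusted p = 0.0398). Its other probe set read 7.02 and 7.19 against 6.39 and 6.19, a larger difference of -0.82. P4HA2, an alpha subunit of collagen prolyl hydroxylase, read 7.85 and 7.88 against 7.50 and 7.37 (difference -0.43, adjusted p = 0.0523). Its relative P4HA1 read 8.17 and 8.30 against 7.95 and 7.79 (difference -0.36, adjusted p = 0.0929). The crosslinking oxidase LOX, dim at 3.40 and 3.11 against 2.78 and 2.91, differed by -0.41 (adjusted p = 0.133), and its 2 dimmer probe sets by 0.01 and 0.09. In these brightest probe sets all 4 genes had arrays that did not overlap, lower on those labelled LLGL1 shRNA. Over all genes 24.7% were separated downward in this way. P4HA2 passed under median centring (adjusted p = 0.0337) and cyclic loess (0.0304). Averaging all probe sets gave -0.62 for PLOD2, -0.29 for P4HA2, -0.29 for P4HA1 and -0.10 for LOX.

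The related mitophagy receptors BNIP3 and BNIP3L, both known as HIF targets, moved in opposite directions. BNIP3L read 8.73 and 8.77 (log2) on the control arrays and 7.97 and 7.91 on the arrays labelled LLGL1 shRNA, and fell 1.75-fold (log2 difference -0.81, SE 0.0557, adjusted p = 0.025). Its other probe set gave a like difference of -0.74. BNIP3 read 1.5 and 1.62 against 2.74 and 2.80, and rose by 1.21 on the log2 scale (SE 0.0686, adjusted p = 0.0246). Both of its probe sets were higher, the dimmer one by 0.86, but all 8 readings lay below 3, where the size of a difference depends on how background was handled, a step these sources do not describe. The mitochondrial adenylate kinase AK4 differed by -0.31 (adjusted p = 0.0849), with its next brightest probe set at 0.01. FAM162A, a mitochondrial protein linked to cell death in hypoxia, differed by 0.12 (adjusted p = 0.289).

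**Figure D3:**
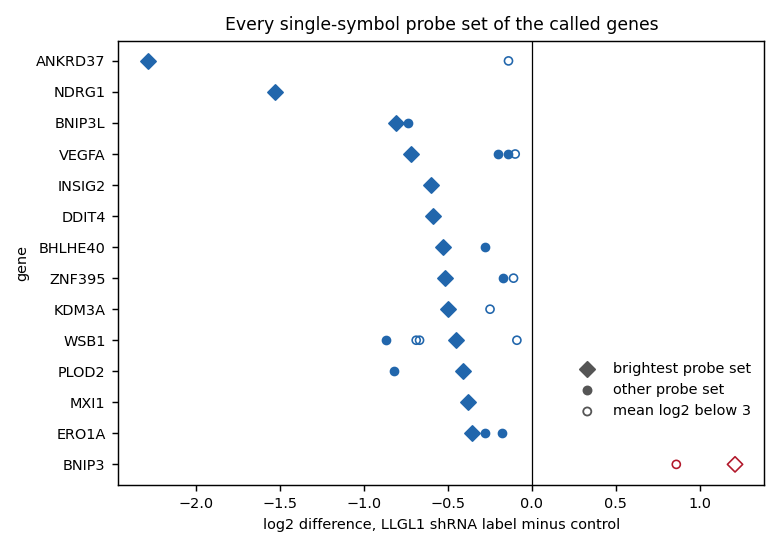
Log2 difference of the arrays labelled LLGL1 shRNA from control (x axis) for every probe set annotated to 1 symbol, for each called gene (rows), with diamonds for the brightest probe set, circles for the others and open symbols for a mean log2 below 3. All 17 other probe sets lie on the same side of 0 as the brightest one, several of them much nearer to 0.

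The calls could be compared with other probe sets for 10 of the 14 called genes. All 17 of these probe sets had the sign of the brightest one, and 11 of the 17 had arrays that did not overlap. Over all genes, in the brightest probe set of each, this separation was seen for 24.7% downward and 27.7% upward. These 17 probe sets read the same RNA on the same arrays, for genes picked by their calls, so they are not independent support. At a mean log2 of at least 3 there were 9, of which 7 did not overlap. For WSB1 and PLOD2 a dimmer probe set differed by more than the brightest one, and for VEGFA and ZNF395 the others differed by much less.

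All 5 genes grouped here as restraining growth or acting on transcription fell, NDRG1 among them, by log2 differences of -1.53 to -0.38. The groups were drawn after values were seen, so this count is not a result about such genes. HIF1A, EPAS1 and ARNT also act on transcription, were placed in another group and were not called. Over all genes 3.07% were called lower. DDIT4, an inhibitor of mTORC1 signalling, read 8.63 and 8.68 on the control arrays and 8.12 and 8.01 on the others (log2 difference -0.59, adjusted p = 0.0353). BHLHE40, a transcriptional repressor that also acts in the circadian clock, read 6.86 and 6.88 against 6.38 and 6.31 (log2 difference -0.53, adjusted p = 0.0349). No array of either gene lay between the groups. MXI1, which antagonises MYC, read 8.58 and 8.63 against 8.25 and 8.19 (log2 difference -0.38, adjusted p = 0.0466). ZNF395, a transcription factor, read 5.98 and 6.02 against 5.44 and 5.52 (log2 difference -0.52, adjusted p = 0.0356). Averaging the ZNF395 probe sets ended its call (log2 difference -0.27, adjusted p = 0.123).

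Of the chromatin enzymes that need oxygen, KDM3A alone was called. This demethylase of histone H3 read 7.46 and 7.50 on the control arrays and 7.02 and 6.94 on the others (log2 difference -0.50, adjusted p = 0.0367). The trimethyl-lysine demethylases KDM4B and KDM4C differed by -0.18 (adjusted p = 0.147) and -0.12 (adjusted p = 0.654), and the lysyl hydroxylase JMJD6 by 0.06 (adjusted p = 0.683). KDM4C was uneven, its arrays labelled LLGL1 shRNA reading 5.48 and 5.10 around control values of 5.41 on both arrays. Its next brightest probe sets differed by -0.31 and -0.27, and its dimmest by 0.04. The KDM4B probe sets ran from -0.42 to 0.24. Averaging all probe sets gave -0.17 for KDM4C (adjusted p = 0.212) and -0.10 for KDM4B (adjusted p = 0.317).

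The remaining members include 3 more that fell. INSIG2, an endoplasmic reticulum protein that restrains SREBP activation, read 6.15 and 6.21 on the control arrays and 5.57 and 5.59 on the others, 1.52-fold lower (log2 difference -0.60, adjusted p = 0.0318). WSB1, a substrate receptor of a ubiquitin ligase, read 8.34 and 8.46 against 7.93 and 7.98 (log2 difference -0.45, adjusted p = 0.0498). ERO1A, the oxidase that forms disulfides in the endoplasmic reticulum, read 9.70 and 9.67 against 9.30 and 9.34 (log2 difference -0.36, adjusted p = 0.046). WSB1 lay just inside the threshold, and ERO1A was not called after its probe sets were averaged (adjusted p = 0.0659). The lipoprotein receptor VLDLR differed by -0.28 (adjusted p = 0.255), which was -0.12 without LLGL1_shRNA replicate 1 and -0.44 without replicate 2 of that group. PPP1R3C, which targets a phosphatase to glycogen, differed by 0.34 (adjusted p = 0.068) from a signal of 1.70 and 1.72.

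**Figure D4:**
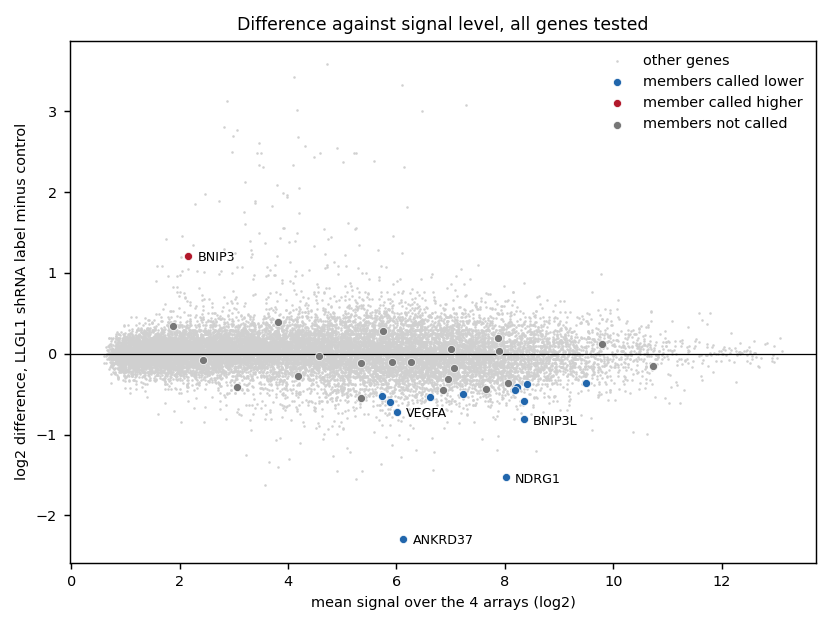
Log2 difference of the arrays labelled LLGL1 shRNA from control (y axis) against the mean log2 signal over the 4 arrays (x axis) for all 19775 genes (light grey), with the 35 members coloured by call. ANKRD37 lies at the bottom of the whole distribution, and the genes called lower all lie at a mean signal of at least 5.

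Other genes of the pathway were read from 3 lists with 81 measured genes, also chosen with earlier results of these data known. Of these genes 15 fell and 5 rose, beside 3.07% lower and 3.21% higher over all genes. Their median log2 difference was -0.06, nearer to the 0.01 of all genes than that of the members. The partners and regulators of HIF, such as coactivators, the subunits of the VHL ligase and chaperones, had 1 of 21 called and a median of 0.02. The gene called was the chaperone HSP90AB1 (log2 difference 0.33, adjusted p = 0.0487), which no longer passed after median centring (adjusted p = 0.0502) or after averaging its probe sets (0.15, adjusted p = 0.171).

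Glycolytic and glucose-handling targets went both ways around a median of 0. Of 23 measured, 5 fell and 3 rose, beside 3.07% lower and 3.21% higher over all genes. The neuronal-type glucose transporter SLC2A3 read 6.33 on both control arrays and 5.27 and 5.33 on the others (log2 difference -1.03, adjusted p = 0.0232). ALDOC, an aldolase, read 5.17 and 5.22 against 4.22 and 4.31 (-0.93, adjusted p = 0.0249). ENO2, an enolase, read 6.36 and 6.32 against 5.62 on both arrays (-0.72, adjusted p = 0.0264). These 3 genes had no overlap between groups, a separation seen downward for 24.7% of all genes. The widely expressed glucose transporter SLC2A1 also fell (-0.57, adjusted p = 0.033). The remaining calls, named because they were few and after their values were seen, were PDK1 lower (-0.43, adjusted p = 0.041) and PKM (0.55, adjusted p = 0.0353), GPI (0.52, adjusted p = 0.0353) and GYS1 (0.51, adjusted p = 0.0446) higher. PDK1, a kinase that limits pyruvate entry into mitochondria, and the pyruvate kinase PKM were not called after averaging their probe sets (adjusted p = 0.154 and 0.165). LDHA (0.09) and PGK1 (-0.13), classical HIF targets of the lower pathway, were not called.

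Of 38 measured hypoxia-induced genes outside the member list, 10 fell and 1 rose, with a median of -0.16. The shares called over all genes were 3.07% lower and 3.21% higher. IGFBP3, which binds insulin-like growth factors, read 7.31 and 7.29 on the control arrays and 6.13 and 6.03 on the others (log2 difference -1.22, adjusted p = 0.0214). ANGPTL4, a lipoprotein lipase inhibitor, read 5.77 and 5.74 against 4.76 and 4.33 (-1.21, adjusted p = 0.0413). CCNG2, an atypical cyclin tied to growth arrest, read 8.59 and 8.55 against 7.91 and 7.88 (-0.68, adjusted p = 0.0288). The phosphatase DUSP1, also an immediate early gene, went the other way, from 5.0 and 5.02 to 6.39 and 6.21 (1.29, adjusted p = 0.0246), which did not pass after averaging its probe sets (0.37, adjusted p = 0.0845). The erythropoietin gene EPO (0.14) and the haem oxygenase HMOX1 (0.12) were not called.

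**Figure D5:**
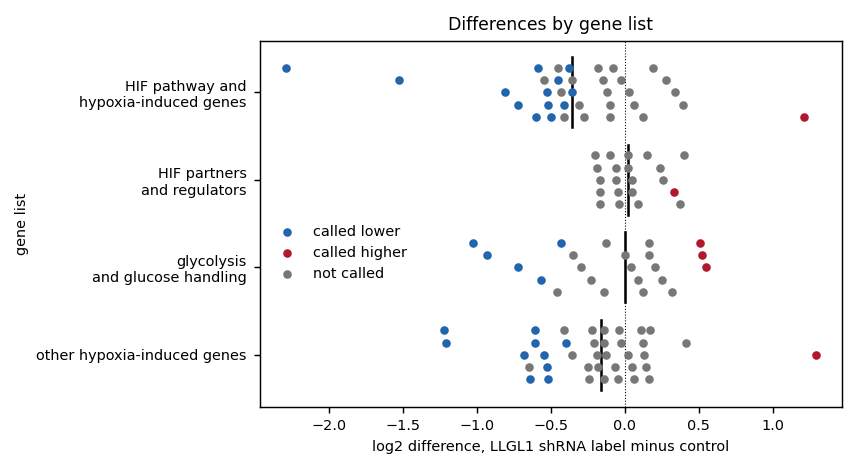
Log2 difference of the arrays labelled LLGL1 shRNA from control (x axis) for the 35 members and for each of 3 lists of other pathway genes (rows), 1 point per gene coloured by call, with the median as a black bar. Medians are -0.36 for the members, 0.02 for HIF partners and regulators, 0 for glycolysis and -0.16 for other hypoxia-induced genes.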

How the data were processed

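Gene expression was measured on 4 one-colour arrays. The log2 signals of 54675 probe sets were deposited by the authors as RMA values, and the submitters' processing notes also name Partek 6.6. How background was handled is not stated there. The authors' deposited table adds an unadjusted p-value and a linear ratio for the groups, per the file headers, and its ratio matched the log2 signals within 1.68e-05. The platform annotation gave 1 symbol to 41097 probe sets, several to 1801 and none to 11777. Updating symbols through Entrez identifiers changed 0.

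Groups were compared over 19775 genes with limma 3.58.1 (lmFit, eBayes) in R 4.3.3, two-sided, and genes with a Benjamini-Hochberg adjusted p below 0.05 were called. Residual degrees of freedom were 2 and prior ones 1.94, so the number of arrays limits the precision. The fit was tested on simulated data. Members and lists were chosen with earlier results of these data known, and lists are described by counts and medians. Array values are given for every called member and for the HIF subunits and sensors, and of each other list up to 4 called genes were to be named, those with the largest differences, to which the remaining glycolytic calls, PDK1, PKM, GPI and GYS1, were added after their values were seen. Other members are mostly given by difference, with array values for some chosen after seeing them. LDHA, PGK1, EPO and HMOX1, and the grouping of members by role, were also chosen after values were seen. The 3 other lists hold 88 entries (CITED2 stands in 2 lists), of which 81 genes were measured. Promoters came from RefSeq (GRCh38.p14), and motifs were searched on both strands in the 250 bases before each start. The alternatives changed the scaling, the moderation, a filter on dim genes, the use of several probe sets, pairing by replicate number, the arrays included and the thresholds.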

Additional observations from a re-analysis of the deposited data

How the results depend on the processing

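Counts are lower then higher, with the share of all genes called. The members, 13 and 1 (3.07% and 3.21%), became 15 and 1 after median centring (4.68% and 4.83%), 14 and 3 after cyclic loess (4.56% and 6.04%), 19 and 3 with trend and robust moderation (10% and 9.87%), and 11 and 2 with all probe sets of a gene averaged (2.97% and 3.17%). Without dim genes, below a mean log2 of 5, they were 20 and 1 of 28 (24.8% and 22.2%). At least 1.5-fold left 6 and 1 (1.06% and 1.37%). An adjusted p below 0.01 left 0 and 0 members in limma (21 and 4 at an unadjusted p below 0.05), and 0 and 13 of all genes. Fits without any 1 array left a group with 1 array, too few for counts to be judged, and are described by differences only. The member median was -0.37 to -0.30 without 1 array, -0.40 without dim genes and -0.17 with probe sets averaged. Other pathway genes, 15 and 5, became, beside the same shares of all genes, 26 and 14 with trend and robust moderation, 25 and 11 without dim genes, 19 and 9 after cyclic loess, 9 and 1 at 1.5-fold, and 0 and 0 at an adjusted p below 0.01. The cause of these shifts was not tested.

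The replicate numbers are not shown to pair the arrays: deviations of same-numbered arrays correlated at r = -0.13 over genes. With the replicate block 0 members and 0 other pathway genes passed in either direction in limma (18 members lower and 4 higher at an unadjusted p below 0.05). The crossed replicate block, added after seeing the data, also gave 0 and 0 (19 and 5). Signs turned for genes near 0: EGLN1 with its probe sets averaged (-0.06) and without control_shRNA replicate 1 (0), EGLN2 without control_shRNA replicate 2 (0.24) and without LLGL1_shRNA replicate 2 (0.02), KDM4C (0.07) and JMJD6 (0) without LLGL1_shRNA replicate 2, and LLGL1 with its probe sets averaged (0.01). Without 1 array each, EGLN2 ran from -0.39 to 0.24, KDM4C from -0.31 to 0.07, JMJD6 from 0 to 0.11, LOX from -0.56 to -0.27, VLDLR from -0.44 to -0.12 and EPAS1 from 0.12 to 0.25, and ADM, EGLN1, HIF1AN and VHL, all near 0, moved by over 1.5 times. No sign of the 14 called members turned under the alternatives that measured them.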
